A study of Mus musculus with 6 samples.

Results

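The genes described here encode membrane carriers that move drugs, hormones and metabolites across the cell surface: the organic anion transporting polypeptides (OATPs, gene names Slco and a number), the SLC22 family, the multidrug and toxin extrusion carriers Slc47a1 and Slc47a2, and the peptide carriers Slc15a1 and Slc15a2. They were taken by gene name from the deposited count table, which gave 44 of its 21959 genes. RNA was sequenced from 2 mouse gastric adenocarcinoma lines, MPC (the study's MTC) and its paclitaxel (PTX)-resistant derivative MPC-PTX (MTC-R), as 3 libraries per line. Both lines carry the genotype CDH1-/-;Trp53-/-, and both were cultured in RPMI medium with serum. MPC came from C57BL/6J gastric organoids with floxed Trp53 and Cdh1 alleles and a Mist1-CreER driver, by way of a subcutaneous tumour in nude mice. MPC-PTX had received more than 30 cycles of PTX. Each line went through monoclonal selection, so each is 1 clone, and differences between clones cannot be told apart from differences that came with resistance. The labels do not say that the replicates were separate cultures, so p-values measure only the spread between these libraries, which may be technical.

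OATPs exchange amphipathic organic anions, among them bile salts, steroid conjugates, thyroid hormones, prostaglandins and many drugs, without using the sodium gradient. The SLC22 family is divided by substrate into organic cation transporters (OCTs), carnitine and ergothioneine transporters (OCTNs), organic anion transporters (OATs) and less well known members. Most of these carriers are best known from liver, kidney and intestine, and the hepatic OATP1B carriers are known to take up taxanes such as PTX. The MATE carriers Slc47a1 and Slc47a2 work in the other direction and exchange organic cations for protons, and the PEPT carriers Slc15a1 and Slc15a2 bring in di- and tripeptides together with protons.

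The total count per library was 19349425 to 21047477 in MPC and 16574580 to 23148182 in MPC-PTX, and 13897 to 14295 genes had at least 1 count. A count of 0 over the 3 libraries of a line allows a level of up to 0.0501 CPM (counts scaled to a common library size) in MPC and 0.0487 CPM in MPC-PTX, a limit that covers counting error only. The MPC libraries differed from each other more than the MPC-PTX libraries did. Deviations of MPC replicate 3 from the line mean fell with GC content (Spearman's rho across genes -0.584) and rose with transcript length (0.472). MPC replicate 1 ran the other way on both (0.467 and -0.429), and so did MPC replicate 2 (0.353 and -0.209). Of 12 tested markers of gastric and glandular epithelium, 12 were lower in MPC-PTX, where 15.6% of all tested genes were called lower. Among the 12, Anxa10 and Vil1 passed the filter on low counts only through their MPC libraries. At their MPC-PTX levels they could be tested only if higher in MPC. The summed level of all 19 listed markers was 10910 to 12540 CPM in MPC and 6543 to 6736 CPM in MPC-PTX, with 4 of them, Tff1, Tff2, Gkn2 and Pgc, at 0 in every library. The drop was uneven, from 1.224-fold for Muc1 and 1.964-fold for Krt19 to 186.4-fold for Ctse and 394.5-fold for Anxa10. Marker lists of fibroblasts, leukocytes and endothelium summed to at most 12.79 CPM in any library, and 1 of their 6 tested genes, Col1a1, was called, lower in MPC-PTX. The part of these differences in the results below was not tested. In RNA from a whole culture, fewer cells that express a gene and less RNA per cell cannot be told apart.

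Most of the carrier genes were silent or nearly so in both lines. Of the 44 genes, 22 had 0 counts in all 6 libraries, 11 had a few counts and did not pass the filter on low counts, and 11 were tested. The genes at 0 included 11 of the 14 OATs, among them Slc22a6 and Slc22a8, the principal basolateral OATs of the kidney, and the urate carrier Slc22a12. They also included 7 of the 14 OATPs. Among these was Slco1b2, the mouse OATP1B carrier of the liver, and it was not detectable at this depth in either line. The other OATPs at 0 were Slco1a1, Slco1a4, Slco1c1, Slco2b1, Slco6c1 and Slco6d1. Slc22a2 of the OCTs, Slc47a2 of the MATE carriers, the carnitine carrier Slc22a16 and Slc22a17, known as a lipocalin 2 receptor, had no count either.

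**Figure D1:**
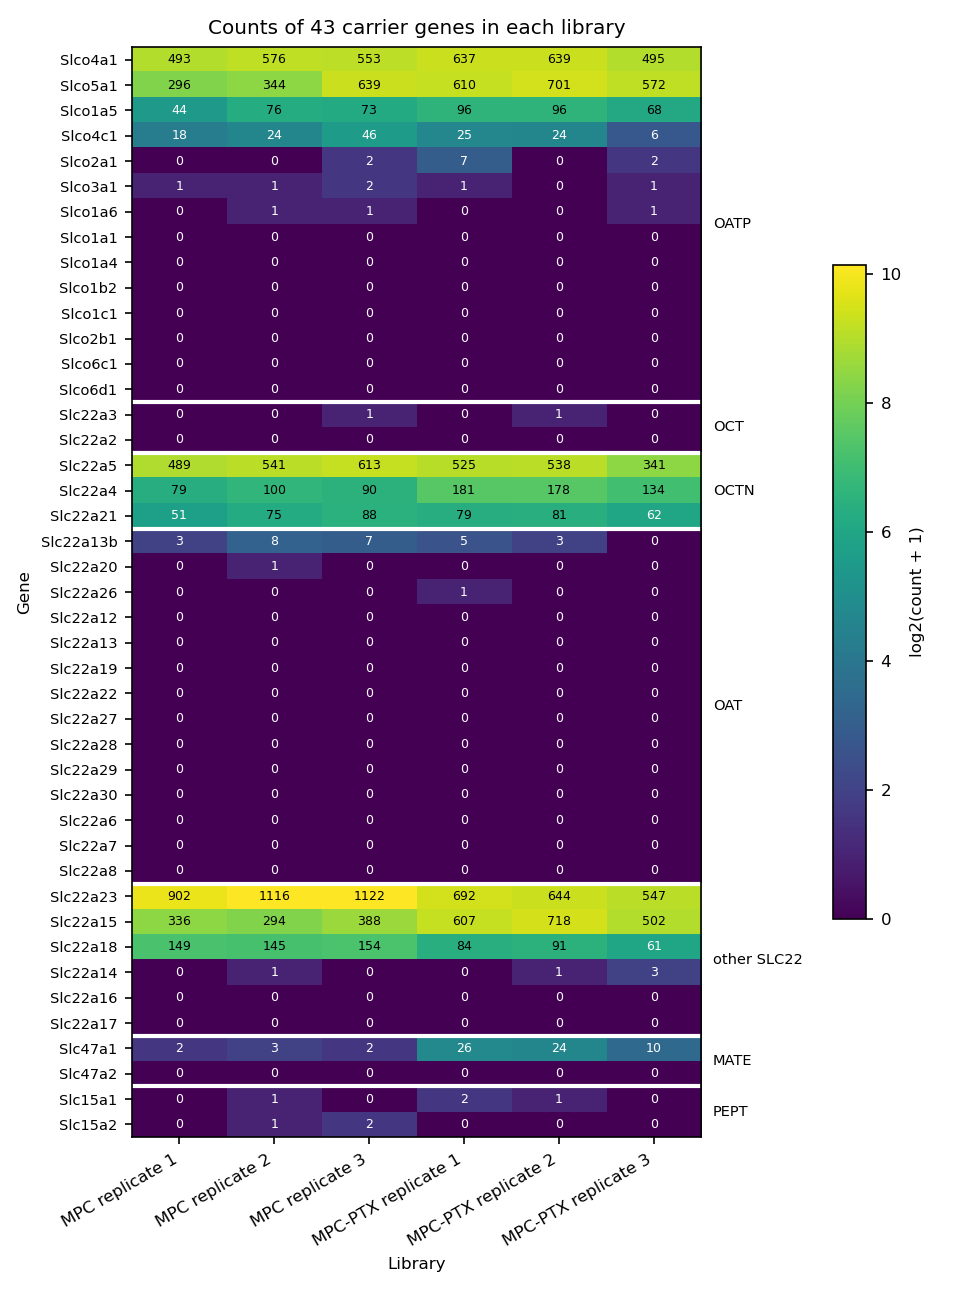
Deposited counts of 43 carrier genes (rows, grouped by subfamily) in the 6 libraries (columns), with the count printed in each cell and the colour giving log2(count + 1). Of these genes, 22 are at 0 in every library, and Slc22a23, at 547 to 1122, has the highest count in each MPC library and in MPC-PTX replicate 1.

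The 11 genes with a few counts reached at most 8 counts in any library. Slco2a1, the prostaglandin transporter, had 0, 0 and 2 counts in MPC replicates 1 to 3 and 7, 0 and 2 in MPC-PTX replicates 1 to 3. Slc22a13b, grouped with the OATs by name, is annotated as a polymorphic pseudogene and shares 49.89% of its stretches of 50 bases with Slc22a13. It had 3, 8 and 7 counts in MPC and 5, 3 and 0 in MPC-PTX. The peptide carrier of the gut, Slc15a1, had 0, 1 and 0 counts in MPC and 2, 1 and 0 in MPC-PTX, and its renal relative Slc15a2 had 0, 1 and 2 in MPC and 0 in every MPC-PTX library. Slc22a3, Slc22a14, Slc22a20, Slc22a26, Slco1a6 and Slco3a1 had 0 to 3 counts in each library. Differences in these 11 genes were not detectable at this depth. Slc22a2 and Slc22a3, carriers of small organic cations, did not pass the filter.

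The 11 tested genes were 4 OATPs, all 3 OCTNs, 3 of the 6 SLC22 genes outside the OCT, OCTN and OAT groups, and 1 MATE carrier. With edgeR's quasi-likelihood test and Benjamini-Hochberg adjustment over the 11795 tested genes, 3 were higher in MPC-PTX at an adjusted p below 0.05 (Slc47a1, Slc22a4 and Slc22a15) and 3 were lower (Slc22a18, Slc22a23 and Slc22a5). Over all tested genes, 14.1% were called higher and 15.6% lower. The call for Slc22a5 was lost in 7 of 14 alternative analyses, which left 2 lower in those. Without MPC replicate 3, all 6 calls kept their direction and Slco5a1 was called higher as well, which made 4 higher and 3 lower. In that fit 25.4% of all tested genes were called higher and 27.1% lower. By the rule of the study's methods, which asks for a log2 fold change beyond 1 in size and a raw p below 0.05, 1 gene was higher (Slc47a1) and 1 lower (Slc22a18), where 3.77% of all tested genes were higher and 4.34% lower. The libraries of the 2 lines did not overlap in CPM for 7 of the 11 genes and for 46.9% of all tested genes. The median log2 fold change was 0.05 over the 11 carriers and 0.04 over all tested genes, while the median of its size without sign was 0.77 and 0.24. The 2 sets were not matched for level, and the SE reached 0.46 among the carriers. Whether the carriers differ more than other genes was not tested. The summed level of all 44 genes was 168.2 ± 14.98 CPM (SD, n = 3) in MPC and 162.7 ± 8.598 CPM in MPC-PTX, so the lines overlapped in the sum while single carriers differed.

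**Figure D2:**
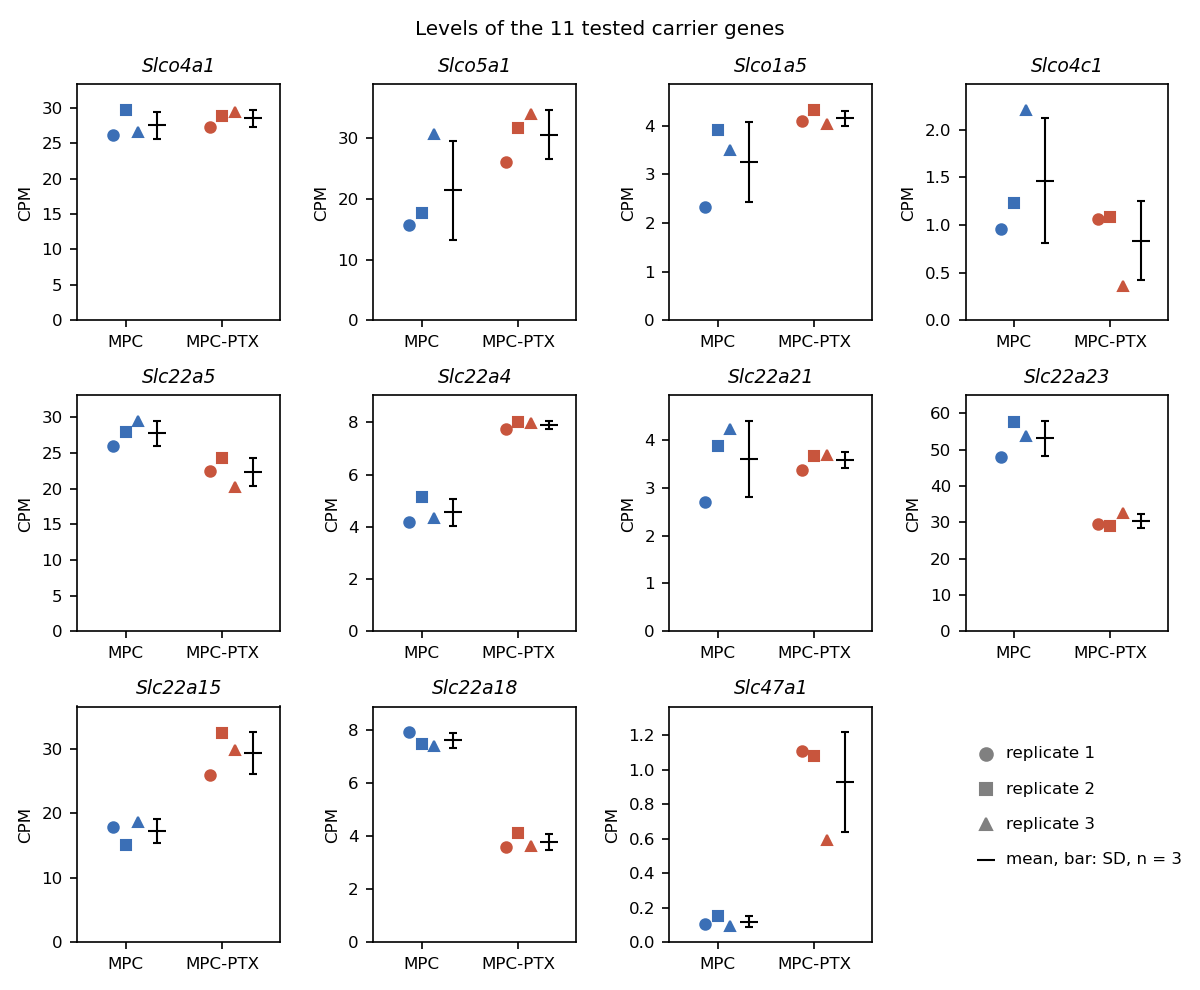
Level in CPM, scaled by the trimmed mean of M-values, of each of the 11 tested carrier genes in MPC (blue) and MPC-PTX (red). Points are libraries, with the symbol giving the replicate number; the black line and bar beside them are mean and SD (n = 3), and every axis starts at 0. The lines do not overlap for Slco1a5, Slc22a5, Slc22a4, Slc22a23, Slc22a15, Slc22a18 and Slc47a1.

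Slc47a1 (MATE1, ENSMUSG00000010122, chr11:61343401-61378345 on GRCm38), the proton-coupled exporter of organic cations, had the largest fold change among the carriers but a low level. It had 2, 3 and 2 counts in MPC replicates 1 to 3 and 26, 24 and 10 counts in MPC-PTX replicates 1 to 3. Every MPC-PTX library lay above every MPC library, and MPC-PTX replicate 3 was the lowest of its line. The level was 0.119 ± 0.0313 CPM (SD, n = 3) in MPC and 0.929 ± 0.290 CPM in MPC-PTX. The fitted log2 fold change was 2.94 (SE 0.46, edgeR adjusted p = 0.00343). Slc47a1 passed the filter on low counts only through its MPC-PTX libraries, so a gene at its MPC level had to differ to be tested at all. Taken over the libraries of a line, 7 counts in MPC stood against 60 in MPC-PTX, a ratio of 8.32 after division by total counts, with an exact binomial 95% interval of 3.8 to 21.6 for counting error alone. Its partner gene Slc47a2 was at 0 in every library.

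Tested genes that start within 200 kb of Slc47a1 numbered 4. Aldh3a1, an aldehyde dehydrogenase whose start lies at -170.8 kb from that of Slc47a1, was also higher in MPC-PTX, at 115.6 CPM in MPC and 469.1 CPM in MPC-PTX on average (log2 fold change 2.02, SE 0.26, edgeR adjusted p = 0.00180). Its neighbour Aldh3a2 was called higher with a log2 fold change of 0.22 (adjusted p = 0.0380). The other 2, Mapk7 and B9d1, had log2 fold changes of -0.09 and -0.03 and were not called. The median of the 4 was 0.10. Of the 4, 2 were called higher, where 14.1% of all tested genes were called higher.

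The 3 OCTN genes lie next to each other on chromosome 11 of GRCm38, all on the minus strand. Slc22a5 (OCTN2, ENSMUSG00000018900, chr11:53864542-53891660) is the high-affinity sodium-dependent carnitine importer. Slc22a21 (OCTN3, ENSMUSG00000063652, chr11:53949965-53980332) is a carnitine carrier of rodents, and Slc22a4 (OCTN1, ENSMUSG00000020334, chr11:53983123-54028090) is best known for importing ergothioneine. Their coding sequences are alike, which bears on how reads are divided among them. The coding sequences of Slc22a5 and Slc22a21 were 90.5% identical, against 77.1% for Slc22a5 and Slc22a4 and 75.4% for Slc22a21 and Slc22a4. The sequences below, from the GENCODE M21 transcripts (GRCm38), show how close they are, read 5′ to 3′ on the coding strand. Coding bases 1416 to 1505 of Slc22a5 are given with the aligned bases of Slc22a21 (1425 to 1514) and Slc22a4 (1416 to 1505), counted from 1 at the start codon. Capitals mark bases that differ from Slc22a5.
Slc22a5: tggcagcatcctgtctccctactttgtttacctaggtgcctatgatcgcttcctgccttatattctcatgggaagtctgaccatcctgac
Slc22a21: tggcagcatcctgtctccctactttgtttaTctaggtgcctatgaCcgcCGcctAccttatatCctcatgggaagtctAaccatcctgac
Slc22a4: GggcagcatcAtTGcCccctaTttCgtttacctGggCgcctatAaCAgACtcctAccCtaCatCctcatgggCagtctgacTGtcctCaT
In this window of 90 bases Slc22a21 differed from Slc22a5 at 7 bases and Slc22a4 at 23. The longest run without any difference between Slc22a5 and Slc22a21, shown because reads inside it could come from either gene, had 157 bases, coding bases 1289 to 1445 of Slc22a5 and 1298 to 1454 of Slc22a21.
Slc22a5 and Slc22a21, shared: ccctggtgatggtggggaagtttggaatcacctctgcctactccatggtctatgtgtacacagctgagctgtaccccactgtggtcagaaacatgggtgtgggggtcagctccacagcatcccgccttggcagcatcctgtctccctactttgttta
Of all stretches of 50 bases in the exons, 26.25% in Slc22a5 and 22.04% in Slc22a21 also occurred in another gene, against 2.64% in Slc22a4. The counts of Slc22a5 and Slc22a21 are therefore uncertain to the extent that the counting, which is not given in the sources used here, could move reads between them.

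The OCTN genes did not change in 1 direction. Slc22a4 had 79, 100 and 90 counts in MPC replicates 1 to 3 and 181, 178 and 134 in MPC-PTX replicates 1 to 3. That corresponds to 4.56 ± 0.520 CPM (SD, n = 3) in MPC and 7.91 ± 0.154 CPM in MPC-PTX, with no overlap between the lines. Slc22a4 was higher in MPC-PTX by a log2 fold change of 0.79 (SE 0.13, edgeR adjusted p = 0.00388), a 1.73-fold difference.

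Slc22a5 had 489, 541 and 613 counts in MPC and 525, 538 and 341 in MPC-PTX. Scaled for depth, this was 25.98, 27.89 and 29.45 CPM in MPC and 22.43, 24.26 and 20.26 CPM in MPC-PTX, so the MPC-PTX libraries lay just below those of MPC. The log2 fold change was -0.31 (SE 0.10), and its adjusted p of 0.0499 in edgeR's test was at the edge of the threshold. The call was lost in 7 of 14 alternative analyses, with adjusted p up to 0.186 when MPC-PTX replicate 3 was left out. It was lost too without MPC replicate 2 (0.132), MPC-PTX replicate 1 (0.150) or MPC-PTX replicate 2 (0.0796).

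Slc22a21 had 51, 75 and 88 counts in MPC and 79, 81 and 62 in MPC-PTX. The lines overlapped at 3.60 ± 0.793 and 3.57 ± 0.170 CPM, and the log2 fold change was -0.02 (SE 0.19, edgeR adjusted p = 0.953). The sign of this value changed in 5 of 14 alternatives.

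Within a library, the level of Slc22a4 per kb of exon was 0.194, 0.222 and 0.177 of that of Slc22a5 in MPC replicates 1 to 3. In MPC-PTX replicates 1 to 3 the ratio was 0.415, 0.398 and 0.473. The ratio does not depend on the scaling of library sizes, and every MPC-PTX library lay above every MPC library. Since Slc22a4 was higher and Slc22a5 lower in MPC-PTX without overlap in CPM, this separation followed from values already given. An exact two-sided permutation test gave p = 0.1, the smallest p that 3 libraries against 3 allow. Its outcome was fixed in the same way, so it adds no separate support. The ratio of Slc22a21 to Slc22a5 was 0.0879, 0.117 and 0.121 in MPC and 0.127, 0.127 and 0.153 in MPC-PTX, again without overlap (exact permutation p = 0.1). The summed level of the 3 genes was 35.9 ± 2.69 CPM in MPC and 33.8 ± 2.03 CPM in MPC-PTX.

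The 3 tested SLC22 genes outside the named groups all differed between the lines. Slc22a23 (ENSMUSG00000038267, chr13:34179158-34345182), an orphan carrier whose substrate is not settled, had the highest count of the carriers in each MPC library. It had 902, 1116 and 1122 counts in MPC replicates 1 to 3 and 692, 644 and 547 in MPC-PTX replicates 1 to 3. Every MPC-PTX library lay below every MPC library. The level was 53.1 ± 4.85 CPM (SD, n = 3) in MPC and 30.4 ± 1.87 CPM in MPC-PTX, a log2 fold change of -0.81 (SE 0.10, edgeR adjusted p = 0.00102).

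Slc22a15 (ENSMUSG00000033147, chr3:101855776-101924453), a carrier of zwitterions such as carnosine and ergothioneine, moved the other way. It had 336, 294 and 388 counts in MPC and 607, 718 and 502 in MPC-PTX. The level was 17.2 ± 1.83 CPM in MPC and 29.4 ± 3.24 CPM in MPC-PTX without overlap, a log2 fold change of 0.77 (SE 0.12, edgeR adjusted p = 0.00360). Slc22a15 and Slc22a4 were the 2 SLC22 genes called higher in MPC-PTX. Both are known to carry ergothioneine, but its uptake was not tested.

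Slc22a18 (ENSMUSG00000000154, chr7:143473736-143499334), an imprinted gene expressed from the maternal allele in the Cdkn1c domain, was lower in MPC-PTX. It had 149, 145 and 154 counts in MPC and 84, 91 and 61 in MPC-PTX. The 3 MPC libraries were close together at 7.60 ± 0.279 CPM, and the MPC-PTX libraries lay below them at 3.77 ± 0.287 CPM. The log2 fold change was -1.01 (SE 0.12, edgeR adjusted p = 0.00118), a 2.01-fold lower level that sits at the fold threshold of the methods rule. The fold was no longer past that threshold in 6 of 14 alternatives, among them the fits without MPC replicate 1, MPC-PTX replicate 1 or MPC-PTX replicate 3, while the adjusted p stayed at or below 0.0112 in all 14.

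The 6 tested genes within 200 kb of Slc22a18 all had log2 fold changes above 0 (median 0.47, against 0.04 over all tested genes), most of them without a call. Of the 6, 1 was called higher and 0 lower, where 14.1% of all tested genes were called higher and 15.6% lower. The called gene was Phlda2, a maternally expressed gene of the same imprinted domain that starts 29.4 kb away (log2 fold change 0.74, SE 0.15, edgeR adjusted p = 0.00874). Cdkn1c, the imprinted cell cycle inhibitor, had 71, 35 and 46 counts in MPC and 110, 94 and 81 in MPC-PTX, a log2 fold change of 0.82 (SE 0.27) that did not pass the test (adjusted p = 0.0540). Tnfrsf26 had the largest value of the 6 (0.95, SE 0.59), from 6, 1 and 13 counts in MPC and 15, 15 and 11 in MPC-PTX. It passed the filter on low counts only through its MPC-PTX libraries, so at its MPC level it could be tested only if higher in MPC-PTX.

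Of the 4 tested OATPs, 0 passed edgeR's test, 0 had an unadjusted p below 0.05 and 0 were called by DESeq2. Slco4a1 (ENSMUSG00000038963, chr2:180456245-180474867), a broadly expressed carrier of thyroid hormones and other anions, had 493, 576 and 553 counts in MPC replicates 1 to 3 and 637, 639 and 495 in MPC-PTX replicates 1 to 3. At 27.5 ± 1.92 CPM (SD, n = 3) and 28.5 ± 1.14 CPM the lines overlapped, with a log2 fold change of 0.05 (SE 0.09, edgeR adjusted p = 0.693). Its sign turned to -0.03 without MPC replicate 3.

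Slco5a1 (ENSMUSG00000025938, chr1:12866549-12992650), an OATP with no settled substrate, had 296, 344 and 639 counts in MPC and 610, 701 and 572 in MPC-PTX. MPC replicate 3, at 30.70 CPM, lay among the MPC-PTX libraries (26.06 to 33.98 CPM), whereas MPC replicates 1 and 2 lay below them at 15.73 and 17.73 CPM. The log2 fold change was 0.51 (SE 0.26, edgeR adjusted p = 0.184). Without MPC replicate 3 it was 0.81 (adjusted p = 0.000544), and without MPC replicate 1, whose deviations ran the other way with GC content and length, it was 0.33 (adjusted p = 0.374). With each library corrected for both it was 0.29 (adjusted p = 0.0562). Slco5a1 was called in 3 of 14 alternatives.

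Slco1a5 (ENSMUSG00000063975, chr6:142234227-142322981), a carrier of bile salts and thyroid hormones, had 44, 76 and 73 counts in MPC and 96, 96 and 68 in MPC-PTX. In CPM the MPC-PTX libraries, at 4.040 to 4.328, lay just above those of MPC, at 2.338 to 3.918. The log2 fold change was 0.35 (SE 0.20, edgeR adjusted p = 0.240). Slco4c1 (ENSMUSG00000040693, chr1:96816270-96872171), a renal carrier of cardiac glycosides and thyroid hormones, had 18, 24 and 46 counts in MPC and 25, 24 and 6 in MPC-PTX. Its spread within each line was wide, and its log2 fold change of -0.77 had an SE of 0.46 (adjusted p = 0.250). The summed OATP level was 53.7 ± 9.03 CPM in MPC and 64.2 ± 4.83 CPM in MPC-PTX.

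**Figure D3:**
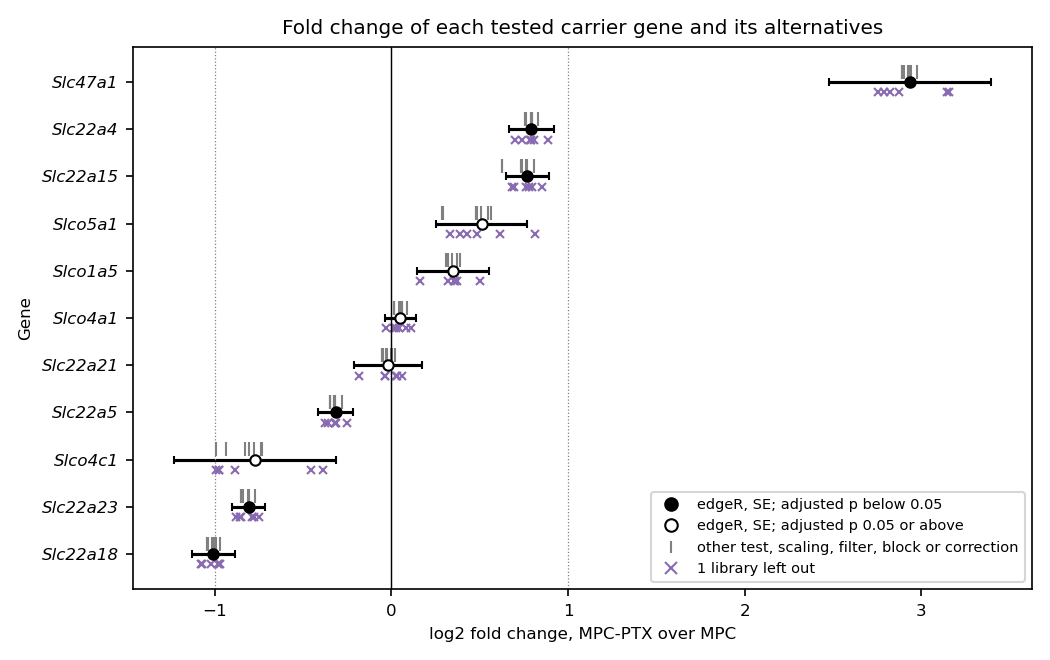
Log2 fold change of MPC-PTX over MPC (x axis) for each of the 11 tested carrier genes (y axis), with the edgeR estimate and its SE as a circle and bar, filled where the adjusted p is below 0.05. Grey ticks are other tests, scalings, filters, blocks and corrections, purple crosses leave out 1 library, and dotted lines mark -1 and 1; Slc47a1 stays between 2.76 and 3.15, whereas Slc22a21 and Slco4a1 have values on both sides of 0.

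Compared between genes as CPM per kb of exon, the order of the carriers differed between the lines. In MPC, Slc22a5 came first at 9.04 ± 0.566 CPM per kb (SD, n = 3) and overlapped with Slc22a23 at 8.32 ± 0.760. Slco4a1 (5.73 ± 0.401) and Slc22a18 (4.47 ± 0.164) followed without overlap. Below them Slc22a4, Slco5a1, Slc22a15, Slc22a21 and Slco1a5, at 0.874 to 1.79 CPM per kb, each overlapped with the next, and Slco4c1 (0.299) and Slc47a1 (0.0352) were lowest. In MPC-PTX, Slc22a5 was again first at 7.27 ± 0.651 CPM per kb, followed without overlap by Slco4a1 at 5.93 ± 0.237, Slc22a23 at 4.75 ± 0.292 and Slc22a4 at 3.10 ± 0.0604. Slco5a1 (2.33), Slc22a18 (2.22) and Slc22a15 (2.06) overlapped with their neighbours in that order. Slc22a18 thus stood above Slc22a4 in MPC and below it in MPC-PTX, and Slc47a1, at 0.275 CPM per kb, overlapped with Slco4c1 at 0.170.

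Genes that work beside these carriers were counted from 4 lists. The counts of each list stand beside 14.1% of all tested genes called higher in MPC-PTX and 15.6% called lower. The first held 30 other uptake carriers of bile acids, nucleosides, folates, thiamine, peptides, copper and monocarboxylates, or relatives of such carriers. Where in the cell each acts, and in which direction, was not examined. Of the 30, 17 were tested, of which 5 were higher in MPC-PTX, 2 lower and 10 not called (median log2 fold change 0.17). The 5 were Slc10a7, Slc29a1, Slc46a3, Slc31a1 and Slc16a13, with log2 fold changes of 0.37 to 0.72. They include the nucleoside carrier ENT1 (Slc29a1) and the copper importer CTR1 (Slc31a1), which is also known for platinum drug uptake. Slc29a1 and Slc10a7 were not called without MPC replicate 2 or any 1 of the MPC-PTX libraries, Slc46a3 under these and with DESeq2, and Slc31a1 without MPC-PTX replicate 1 or 2. Slc16a13 was called in all 14 alternatives. The 2 lower genes were Slc29a3 (-0.55) and Slc10a5, a relative of the bile acid carriers. Slc10a5 had 30, 39 and 40 counts in MPC and 2, 5 and 1 in MPC-PTX, a log2 fold change of -3.79 (SE 0.40, edgeR adjusted p = 0.000612). It passed the filter on low counts only through its MPC libraries, and it could not be tested with at least 10 counts required in every library.

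Prostaglandins are substrates of several OATPs, and of 22 genes of their synthesis, export, breakdown and sensing 11 were tested. Of these, 4 were higher in MPC-PTX (Ptgds, Ptgs2, Ptgr1 and Ptger4), 2 were lower (Ptges3 and Ptgr2) and 5 were not called, with a median log2 fold change of 0.01. Ptgds, the prostaglandin D synthase, had 15, 23 and 21 counts in MPC and 56, 41 and 43 in MPC-PTX, so the lines did not overlap (log2 fold change 1.17, SE 0.24, edgeR adjusted p = 0.0107). Ptgs2 (COX-2), the inducible cyclooxygenase, had a log2 fold change of 0.60 (SE 0.15, adjusted p = 0.0260), a call lost with the GC and length correction and without any 1 of the MPC-PTX libraries. Ptgds was not called without MPC-PTX replicate 1, whereas Ptgr1 was called in all 14 alternatives. The efflux carrier Abcc4, which exports prostaglandins, was at 59.2 ± 4.50 CPM in MPC and 59.7 ± 1.59 CPM in MPC-PTX and was not called (adjusted p = 0.925).

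Carnitine brought in by OCTNs carries fatty acids into mitochondria. A list of 16 genes covered carnitine synthesis, the carnitine shuttle and fatty acid oxidation. Of the 16, 15 were in the table and 12 were tested, of which 1 was higher in MPC-PTX, 1 lower and 10 not called (median log2 fold change 0.02). Crot (chr5:8966033-8997324), the peroxisomal carnitine octanoyltransferase, had 2364, 2557 and 3435 counts in MPC and 7475, 7304 and 5787 in MPC-PTX. Whether genes near Crot differed with it was not tested. Its level was 140.8 ± 21.2 CPM in MPC and 330.8 ± 12.3 CPM in MPC-PTX (log2 fold change 1.23, SE 0.11, edgeR adjusted p = 0.000262). The lower gene was Slc25a20, the carnitine-acylcarnitine exchanger of the inner mitochondrial membrane (-0.34, SE 0.10, adjusted p = 0.0431). This call was lost in 6 of 14 alternatives, with the library size alone and without MPC replicate 1, MPC replicate 2 or any 1 of the MPC-PTX libraries. Cpt1a, which makes acylcarnitine at the outer membrane, was at 139.3 ± 5.95 CPM in MPC and 147.6 ± 3.74 CPM in MPC-PTX and was not called (adjusted p = 0.341).

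Of 20 scaffolds and regulators of these carriers, 14 were tested, 3 were lower in MPC-PTX, 0 were higher at an adjusted p below 0.05 (also 0 by DESeq2), and 11 were not called (median log2 fold change -0.07). At an unadjusted p below 0.05, 1 was higher, the kinase Prkaa1 (log2 fold change 0.30, edgeR adjusted p = 0.0518). The transcription factor Hnf4a, a known activator of hepatic, renal and intestinal carrier genes, had 927, 1442 and 1524 counts in MPC and 24, 19 and 16 in MPC-PTX. This was the largest change of the 4 lists (log2 fold change -6.11, SE 0.23, edgeR adjusted p = 9.23e-06). Pdzk1ip1, a small membrane protein that binds the scaffold PDZK1, was at 23.9 ± 1.90 CPM in MPC and 6.08 ± 0.545 CPM in MPC-PTX (log2 fold change -1.98, SE 0.11, adjusted p = 4.28e-05). The scaffold Slc9a3r1, which anchors carriers at the apical membrane, was at 206.4 ± 24.2 and 183.3 ± 2.95 CPM and was not called (adjusted p = 0.198). Whether any carrier follows a regulator was not tested.

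**Figure D4:**
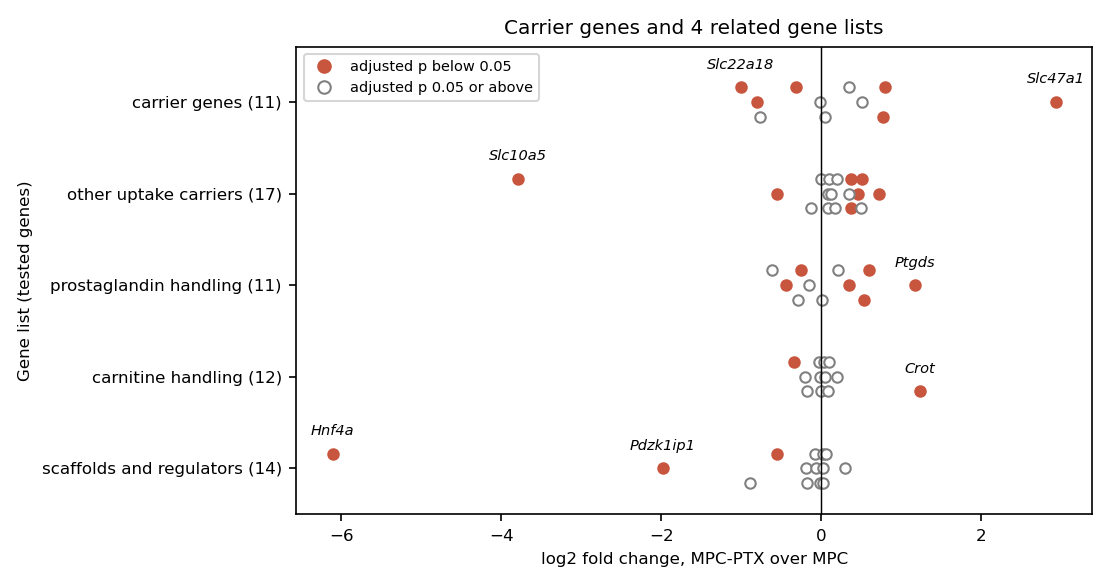
Log2 fold change of MPC-PTX over MPC (x axis) for the tested carrier genes and for 4 lists of related genes (y axis, number of tested genes in brackets). Each point is 1 gene, filled where the edgeR adjusted p is below 0.05, and genes called with an absolute log2 fold change above 1 are named; Slc47a1 lies at 2.94 and Hnf4a at -6.11, while most genes of the lists lie between -1 and 1.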

How the data were processed

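Poly-A selected RNA of 3 MPC and 3 MPC-PTX libraries was sequenced, and groups were taken from the sample labels. The authors trimmed reads with fastp 0.22.0, aligned them by HISAT2 and deposited raw read counts per gene, not normalised; the sample files and the series table held the same counts. The genome build, annotation, counting tool and use of strand are not given in the sources used here. Of the table, 51 genes had no symbol and were kept by identifier.

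From the deposited counts, genes were filtered with filterByExpr (minimum count 10), scaled by TMM and tested with edgeR 4.0.16 (glmQLFit, robust, and glmQLFTest; R 4.3.3), with Benjamini-Hochberg adjustment over 11795 genes. The study's methods call a gene at a log2 fold change beyond 1 in size and a raw p below 0.05. The SE is the log2 fold change divided by the square root of F. Positions, exon lengths and coding sequences came from GENCODE M21 (GRCm38). The 6 libraries' total counts, 16574580 to 23148182, set the precision, and intervals cover counting error only. Scripts were tested on simulated data.

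All tested carriers are named (1 untested carrier and 1 regulator enter the counts but are not reported here), as are genes of the 4 related lists called at an adjusted p below 0.05 whose log2 fold change was beyond 1 in size, and other genes of these lists as examples of a count. Phlda2, Cdkn1c, Tnfrsf26, Aldh3a1, Aldh3a2, Mapk7 and B9d1 were named after their values were seen. The members and lists were chosen with earlier results of these data known. Alternatives were DESeq2 1.42.0, its size factors, library size alone, no filter, at least 10 counts in every library, the replicate number as a block, a loess correction for GC content and length (span 0.3) with and without the block, and each library left out.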

Additional observations from a re-analysis of the deposited data

How the results depend on the processing

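Over the alternatives that could test them, 14 for most genes and 13 for Slc47a1, the calls for Slc22a15 (log2 fold change 0.63 to 0.85), Slc22a4 (0.70 to 0.89), Slc22a23 (-0.88 to -0.75), Slc22a18 (-1.08 to -0.97) and Slc47a1 (2.76 to 3.15) kept their direction and an adjusted p below 0.05. Slc22a5 was not called in 7 alternatives, and Slco5a1 was called in 3, without MPC replicate 3 (0.81), with the replicate block (0.56) and with the block and the GC and length correction (0.29). The sign of Slc22a21 turned with the library size alone (0.0194) and with the replicate block (0.0048). With a library left out, Slc22a21 ran from -0.1849 to 0.0596, above 0 without MPC replicate 2, MPC replicate 3 or MPC-PTX replicate 1. Slco4a1 ran from -0.0278 without MPC replicate 3 to 0.1088 without MPC replicate 2.

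By the methods rule, 0 carriers were lower with the library size alone or with the GC and length correction, with or without the block, and 0 to 1 with a library left out. With at least 10 counts in every library, Slc47a1 could not be tested, so 0 carriers were higher by that rule. All counts that follow are calls at an adjusted p below 0.05, with no limit on fold change. With at least 10 counts in every library, 1 other uptake carrier was lower. The library size alone gave 0 lower carnitine genes and 1 higher scaffold or regulator, a count also given by no filter and by the replicate block. Over all tested genes, 16.9% were called higher and 13.7% lower with the library size alone, and 15.2% and 14.6% with the replicate block. The GC and length correction gave 2 higher carnitine genes and 6 lower scaffolds and regulators, and with the block 2 higher and 2 lower carnitine genes. With this correction 18.9% of all tested genes were called higher and 22.5% lower, and with the block 19.0% and 22.5%. Leaving out a library gave 1 to 7 higher other uptake carriers, 1 to 5 higher and 0 to 5 lower prostaglandin genes, 0 to 3 lower carnitine genes, and 0 to 1 higher and 3 to 6 lower scaffolds and regulators. The share of all tested genes moved as well, from 6.75% to 25.4% called higher and from 9.04% to 27.1% called lower. Both were largest without MPC replicate 3. Fewer prostaglandin genes were called without any 1 of the MPC-PTX libraries (1 to 2 higher, 0 lower): Ptgs2, Ptger4, Ptges3 and Ptgr2 lost their calls in each of these. In the same fits only 6.75% to 7.02% of all tested genes were called higher and 9.04% to 9.42% lower. The cause of these changes was not tested, and leaving out a library also leaves fewer samples. The same-numbered libraries' deviations correlated at 0.151, -0.0227 and 0.173, so the numbers were not taken to pair the libraries. With the replicate block, 4 carriers were higher and 2 lower, since Slco5a1 gained and Slc22a5 lost its call. Counts of 0 to 8 in 33 of the 44 genes leave changes there undetectable.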
